A study of Homo sapiens with 8 samples.

Results

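Expression of 10 genes that mark or regulate the epithelial-mesenchymal transition (EMT) was examined in SQ20B cells in normoxia and hypoxia. The genes were the cadherins CDH1, CDH2 and CDH3, the mesenchymal products VIM and FN1, and the transcription factors SNAI1, SNAI2, TWIST1, ZEB1 and ZEB2. They were chosen by name, with earlier results of these data known. Every transcript of the deposited table whose RefSeq identifier belongs to any of them was used. This gave 15 transcripts of 9 genes, out of 24812 transcripts and 14528 named genes. SNAI1 had no row in the table and was not analysed here.

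SQ20B is an established cell line from a human squamous cell carcinoma of the head and neck. Polyadenylated RNA was sequenced from 4 replicates cultured in normoxia and from 4 replicates kept in 0.5% O2 for 16 h. The cells were of the same line and medium in both conditions, with no genetic change or drug named for either. As a culture of a single line, it lacks the stroma and vessels of a tumour.

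The table gives 1 FPKM value per transcript and condition, which the authors computed over the replicates. In it, fragment counts are divided by transcript length and scaled for library size. Single replicates were not analysed here and the authors' test columns were not used, and no spread, test or interval is given. All differences below are descriptions of these libraries. Changes are log2((hypoxia FPKM + 0.1)/(normoxia FPKM + 0.1)), and FPKM values of the transcripts of a gene were added first. A gene at or above a mean of 0.5 FPKM was counted as called when its change was at least 1.5-fold, a log2 change of 0.585. FPKM is a relative measure of the RNA in a library, so that fewer cells expressing a gene and less of its RNA per cell cannot be told apart.

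EMT is the process in which epithelial cells loosen their junctions and acquire traits of mesenchymal cells, such as motility and production of matrix. E-cadherin, encoded by CDH1, holds neighbouring epithelial cells together by binding the same protein on the next cell, and its cytoplasmic tail is tied to actin through catenins. The zinc finger factors of the SNAI and ZEB families and the basic helix-loop-helix factor TWIST1 repress CDH1 and other epithelial genes, and some carcinoma cells hold epithelial and mesenchymal products at the same time. Low oxygen is among the conditions that have been linked to EMT in carcinoma.

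The labelled cell type was checked first. Of 12 squamous epithelial markers, 10 were listed, and their FPKM summed to 727 in normoxia and 829 in hypoxia. KRT5, a basal keratin, made up most of these sums, at 398 and 442 FPKM. TP63, a transcription factor of squamous epithelium, was at 42.8 and 44.6. Of the 9 at the limit defined above, 5 had a log2 change above 0 and 4 below. The latter were KRT6A (-0.63), DSG3 (-0.36), DSC3 (-0.27) and SFN (-0.21), and the median was 0.06. None was called higher and 1, KRT6A, was called lower, against 9.95% and 11.2% of all 12106 genes at the limit. KRT14 and PKP1 had no row. Of 12 fibroblast markers, 3 were listed (COL3A1, LUM and FAP), with no value above 0.545 FPKM, and they summed to 0.720 and 0.633 FPKM. COL1A1, COL1A2, PDGFRA, PDGFRB and THY1 had no row. Why a gene has no row is not known. Missing rows, here and below, are thus not read as absence of expression. Of 11 endothelial and blood cell markers, 4 were listed (CDH5, CD68, CD14 and LYZ), with sums of 7.46 and 6.30 FPKM. Of 10 hypoxia response genes, 9 were listed, and LDHA had no row. All 9 were called higher in hypoxia, against 9.95% of all 12106 genes at the limit. Their median log2 change was 2.83, with CA9 at 4.77, ADM at 1.55 and VEGFA at 1.02.

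Among the EMT genes, FN1 had the largest change, 3.19-fold higher in hypoxia, followed by VIM and CDH3, whereas CDH2, SNAI2 and TWIST1 differed little between the conditions. CDH1 was higher in hypoxia by less than 1.5-fold. In all, 7 of the 9 listed genes reached a mean of 0.5 FPKM. Of these 7, 3 were called higher in hypoxia (42.9%), against 9.95% of all 12106 genes at that limit, and 0 were called lower, against 11.2% of all genes. The median log2 change of the 7 genes was 0.43, and that of all genes was -0.07. With a limit of 2-fold, FN1 alone was called, against 3.21% of all genes. ZEB1 and ZEB2 lay below the limit.

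**Figure D1:**
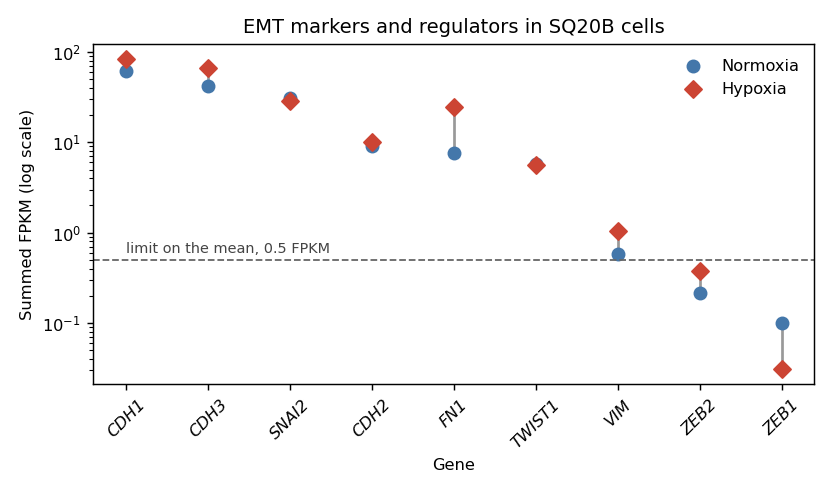
Summed FPKM of the 9 listed EMT genes on a log axis, with 1 circle for normoxia and 1 diamond for hypoxia per gene, each the authors' value over the replicates. CDH1, CDH3 and SNAI2 lie highest, VIM lies just above the dashed limit of 0.5 FPKM and ZEB2 and ZEB1 below it; the widest upward gap above the limit is that of FN1, from 7.69 to 24.7 FPKM.

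CDH1 (NM_004360) lies on chromosome 16 of hg19 (68771195 to 68869444). It was at 61.1 FPKM in normoxia and 82.6 FPKM in hypoxia, which is 1.35-fold or 0.43 on the log2 scale. It was the most abundant member in both conditions, and its level exceeded that of 87.2% of the genes at the limit in normoxia and 92.1% in hypoxia. The E-cadherin transcript was thus higher in the hypoxic libraries by a modest factor, and its change exceeded that of 84.6% of all genes. Scaling the columns to equal sums moved the change of CDH1 to 0.66 and quantile normalization also to 0.66, both past 1.5-fold.

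CDH3 encodes P-cadherin, the cadherin of the basal layer of stratified epithelia. Its transcript NM_001793 lies next to CDH1 on chromosome 16 (68678151 to 68732957), with 38237 bases between the listed loci and 0 listed transcripts lying between them. CDH3 was at 42.4 FPKM in normoxia and 65.7 FPKM in hypoxia, a log2 change of 0.63, which lay just past the limit of 1.5-fold. The ratio of CDH1 to CDH3 FPKM was 1.44 in normoxia and 1.26 in hypoxia. Both neighbours were thus higher in hypoxia, CDH3 by the larger factor. CDH3 was past 1.5-fold under each of the other pseudocounts and scalings that were tried, from 0.62 to 0.86.

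CDH2 encodes N-cadherin, the cadherin of neural and many mesenchymal cells, whose gain in place of E-cadherin is a classical sign of EMT. NM_001792 on chromosome 18 (25530930 to 25757445) was at 9.21 FPKM in normoxia and 9.96 FPKM in hypoxia, a log2 change of 0.11. The ratio of CDH1 to CDH2 was 6.63 in normoxia and 8.29 in hypoxia. CDH1 thus exceeded CDH2 in both conditions, by the wider factor in hypoxia.

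Of 20 other cadherin genes, 7 were listed, of which 4 were at the limit. Together with CDH1, CDH2 and CDH3, the listed cadherins summed to 142 FPKM in normoxia and 189 FPKM in hypoxia. CDH1 made up 43.0% of this sum in normoxia and 43.7% in hypoxia. The share of CDH3 was 29.8% and 34.8%, and that of CDH2 was 6.48% and 5.27%. CDH13, which encodes the membrane-anchored T-cadherin that lacks a cytoplasmic tail, made up 15.2% and 13.2%. CDH5, the cadherin of vascular endothelium, was the only other cadherin called, from 4.78 to 2.83 FPKM (log2 change -0.73). This is 1 of 4 called lower and 0 higher, against 11.2% and 9.95% of all genes at the limit. With 4 genes, no difference from that share can be read. The median log2 change of the 4 was 0.02. CDH11, a cadherin of mesenchymal cells, had no row.

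FN1 encodes fibronectin, a large secreted glycoprotein that assembles into matrix fibrils and is bound by integrins. It lies on chromosome 2 of hg19 (216225179 to 216300791, on the minus strand). Its 6 listed transcripts summed to 7.69 FPKM in normoxia and 24.7 FPKM in hypoxia, a log2 change of 1.67 that exceeded the change of 99.1% of all genes. In normoxia, FN1 was the fifth of the members by level, below CDH2, and in hypoxia the fourth, above it. The ratio of FN1 to CDH2 went from 0.834 to 2.48, and that of FN1 to CDH1 from 0.126 to 0.2996.

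The most abundant FN1 transcript, NM_002026, was at 3.33 FPKM in normoxia and 10.3 FPKM in hypoxia. NM_212474 was at 1.57 and 5.45 FPKM. NM_212476 was at 1.22 and 3.92 FPKM. All of these differ in alternatively spliced segments of the same pre-mRNA. NM_212482 was at 0.753 and 2.40 FPKM, and NM_212478 at 0.743 and 2.41. NM_054034, which encodes a short secreted form, was at 0.0716 and 0.249 FPKM, below the limit.

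The FN1 transcripts at the limit had log2 changes from 1.55 (NM_212482) to 1.73 (NM_212474), so that all 5 were called higher, against 10.5% of all 18190 transcripts at the limit. With nothing added to the values, the 6 ratios of hypoxia to normoxia lay between 3.10 and 3.48. The shares of the transcripts in the summed FPKM hardly differed: NM_002026 held 43.3% in normoxia and 41.7% in hypoxia, NM_212474 20.4% and 22.0%, and no share moved by more than 1.65 percentage points. These transcripts overlap over most of their length, and their FPKM values depend on how Cufflinks divided the shared fragments among them.

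**Figure D2:**
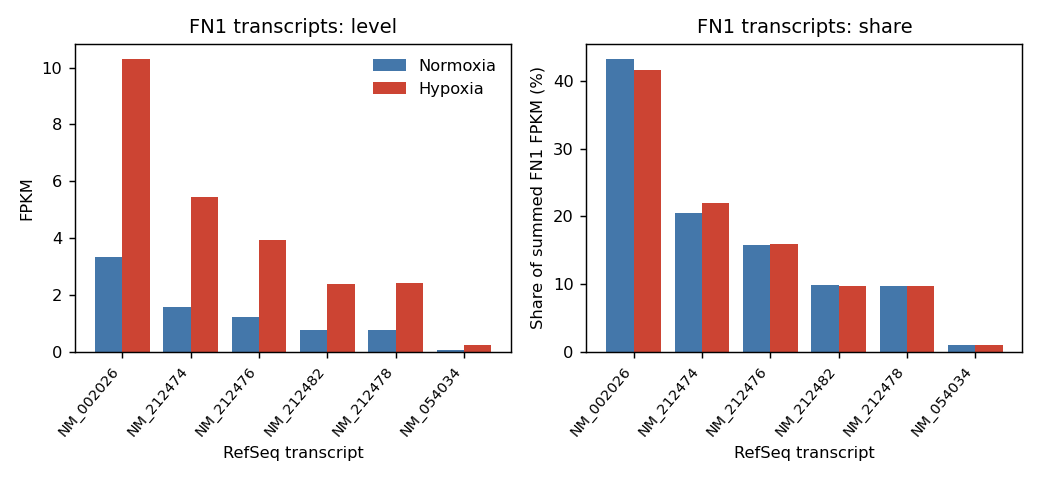
FPKM of the 6 listed FN1 transcripts (left) and the share of each in the summed FN1 FPKM in percent (right), with a bar for normoxia and a bar for hypoxia, each from the authors' value over the replicates. Every transcript is higher in hypoxia on the left, while the paired bars on the right are of nearly the same height, as for NM_002026 at 43.3% and 41.7%.

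VIM encodes vimentin, the intermediate filament protein of mesenchymal cells. NM_003380 was at 0.576 FPKM in normoxia and 1.04 FPKM in hypoxia, a log2 change of 0.75. These levels were low, above those of 3.51% of the genes at the limit in normoxia and 9.24% in hypoxia, and CDH1 was at 106 times the FPKM of VIM in normoxia and 79.4 times in hypoxia. With 1 added to each FPKM in place of 0.1, the change of VIM was 0.37, below 1.5-fold. VIM shares its listed locus on chromosome 10 (17256238 to 17279592) with NR_108060 of VIM-AS1, a noncoding RNA of the opposite strand, which was at 0.463 FPKM in normoxia and 0.884 in hypoxia (log2 change 0.81). The libraries were stranded, but the methods name standard parameters for the counting and give no strand setting, so that reads of VIM and VIM-AS1 cannot be told apart with certainty.

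The sequences upstream of FN1 and VIM, the members with the largest changes, are shown because these are the regions where their transcription begins. They are the 250 bases before the RefSeq start of each gene, from the RefSeq promoter windows of GRCh38.p14. Each was matched without a difference to 1 place on its chromosome in GRCh37. Capitals mark matches, on either strand, to the motifs that were searched.
FN1, chr2:216300792-216301041, minus strand, GRCh37: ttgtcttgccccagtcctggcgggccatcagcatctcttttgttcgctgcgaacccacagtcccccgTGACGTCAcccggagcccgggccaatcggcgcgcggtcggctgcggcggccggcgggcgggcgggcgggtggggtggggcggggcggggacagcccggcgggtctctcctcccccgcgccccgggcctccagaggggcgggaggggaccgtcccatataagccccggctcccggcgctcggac
VIM, chr10:17269990-17270239, plus strand, GRCh37: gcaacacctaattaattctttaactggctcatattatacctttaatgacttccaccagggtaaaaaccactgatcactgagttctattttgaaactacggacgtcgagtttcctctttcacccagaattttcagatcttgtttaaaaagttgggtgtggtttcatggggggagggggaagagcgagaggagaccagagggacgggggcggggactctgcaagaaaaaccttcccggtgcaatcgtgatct

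The FN1 sequence ends at the base next to the listed FN1 locus, whereas the VIM sequence lies inside the listed locus that VIM shares with VIM-AS1. The FN1 sequence holds a full cAMP response element, TGACGTCA, with its first base at -183 relative to the start. This motif is present in 1.85% of 35116 windows of 300 bases around starts. Neither core of the hypoxia response element, ACGTG or GCGTG, occurs on either strand of the FN1 window, and 48.4% of all windows hold at least 1 of them. The VIM window holds ACGTG once, on the opposite strand at 8 bases past the start, outside the part shown. The E-box CACCTG, bound by SNAI and ZEB proteins, occurs in neither window and in 20.6% of all windows. CACGTG and TATAAA were also searched and occur in neither window, against 7.26% and 11.5% of all windows. Only exact matches were searched, so that near matches are not marked. The stretch tataag near the end of the FN1 sequence, for example, differs from TATAAA in its last base. The FN1 sequence has a GC content of 76.4% with 32 CG dinucleotides and the VIM sequence 46% with 8, whereas the median GC content of all such sequences was 58%. These are matches of letters and were not tested for binding or effect.

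**Figure D3:**
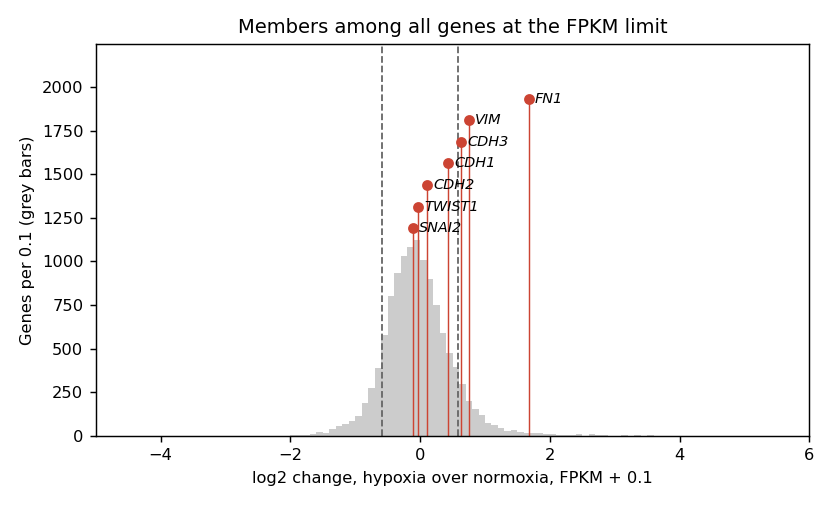
Histogram of the log2 change (hypoxia over normoxia, 0.1 FPKM added) of all 12106 genes at the FPKM limit in grey, with a red stem for each of the 7 EMT genes at the limit (stem heights have no scale) and dashed lines at 1.5-fold. FN1 at 1.67 lies in the upper tail, VIM and CDH3 lie just past the upper line, and SNAI2 and TWIST1 lie near the peak.

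SNAI2 encodes Slug, a repressor of CDH1 that is also a normal product of basal keratinocytes. Its transcript NM_003068 lies on chromosome 8 (49830239 to 49833999). It was the most abundant of the listed EMT transcription factors, at 31.2 FPKM in normoxia and 28.9 FPKM in hypoxia. The log2 change was -0.11, and became 0.12 with equal column sums. Its FPKM was thus nearly the same in both conditions, below CDH1 and CDH3 and above CDH2, and higher than that of 76.4% of the genes at the limit in normoxia.

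TWIST1, a basic helix-loop-helix factor of mesoderm and neural crest, lies on chromosome 7 (19155091 to 19157295). NM_000474 was at 5.71 FPKM in normoxia and 5.61 FPKM in hypoxia. The log2 change of TWIST1 was -0.03, and turned to 0.20 with equal sums. SNAI2 was at 5.46 times the FPKM of TWIST1 in normoxia and 5.16 times in hypoxia. Neither of these repressors was called in any alternative that was tried.

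ZEB1 and ZEB2 encode zinc finger and homeodomain repressors that bind paired E-boxes and, in epithelial cells, are held low by microRNAs of the miR-200 family. ZEB1 (NM_030751, chromosome 10, 31608101 to 31818742) was at 0.09996 FPKM in normoxia and 0.0311 in hypoxia. ZEB2 (chromosome 2, 145141942 to 145278465) summed to 0.214 and 0.374 FPKM. The coding transcript NM_014795 of ZEB2 was at 0.120 FPKM in normoxia and 0.140 in hypoxia, and the noncoding NR_033258 at 0.0939 and 0.234. Both genes were thus near the bottom of the listed range, and no reading of a change is made at this level. The log2 change of ZEB1 went from -0.61 to -0.09 when 1 was added to each FPKM in place of 0.1, and that of ZEB2 from 0.59 to 0.18. The FPKM of SNAI2 exceeded that of ZEB2 by 146 times in normoxia and 77.3 times in hypoxia. ZEB1-AS1 (NR_024284), a noncoding RNA that begins 76 bases from the ZEB1 locus, was listed above ZEB1 itself, at 1.55 FPKM in normoxia and 1.87 in hypoxia.

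Genes that act with the members were described from lists chosen by function, likewise with earlier results of these data known. The counts of all genes given above (9.95% higher, 11.2% lower, median -0.07) serve as background for them. Adherens junction partners are the catenins, nectins and linkers that hold cadherins to the cytoskeleton or act beside them. Of 16, 12 were listed and at the limit, 4 were called higher and 0 lower, with a median log2 change of 0.39. JUP, which encodes plakoglobin, was at 4.08 FPKM in normoxia and 7.99 in hypoxia (0.95), and AFDN, the actin linker of nectins, at 18.4 and 35.3 (0.93). CTNNA1 and CTNNB1, the alpha and beta catenins that bind E-cadherin, differed little, with log2 changes of -0.09 and -0.04. They were at 173 and 192 FPKM in normoxia. The lowest changes were those of CTNNAL1, a catenin-like protein (290 to 195 FPKM, -0.57), and EPCAM, an epithelial adhesion molecule (317 to 233 FPKM, -0.45). These abundant genes weigh most in the summed FPKM of the list, which was 1078 in normoxia and 936 in hypoxia, against the direction of the median. CTNND1, the p120 catenin, had no row.

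Regulators of the epithelial state are transcription and splicing factors that keep epithelial genes active. Of 20, 18 were listed and at the limit, 2 were called higher and 1 lower, and the median was -0.10. GRHL1, a Grainyhead-like factor of epidermis, was at 5.48 FPKM in normoxia and 10.6 in hypoxia (log2 change 0.95). OVOL1, a zinc finger repressor of mesenchymal genes, was at 1.46 and 2.48 (0.72). FOXA1 was the gene called lower, from 5.70 to 3.59 FPKM (-0.65). ESRP1, the epithelial splicing regulator, was at 62.4 FPKM in normoxia and 58.5 in hypoxia (-0.09).

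Of 18 other transcription factors linked to EMT, 10 of the 11 listed were at the limit, and 2 of these were called higher, SOX9 (1.09 to 2.78 FPKM, log2 change 1.27) and ETS1 (30.6 to 54.3, 0.82). None of the 10 was called lower, and the median was -0.04. TWIST2, the paralogue of TWIST1, was at 1.29 FPKM in normoxia and 0.958 in hypoxia. SNAI3 had no row, nor had PRRX1 or FOXC2.

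The list of other mesenchymal genes held 28 genes, of which 20 were listed and 15 at the limit. Of the 15, 4 were called higher and 0 lower, and the median was 0.19. The largest changes were those of ITGA5, which encodes the alpha chain of the main fibronectin receptor, from 1.42 to 10.2 FPKM (2.76), and LOX, a crosslinking enzyme of collagen, from 0.373 to 1.33 (1.60). The others were MMP2 and COL5A1, with log2 changes of 0.67 and 0.88 and hypoxia levels of 1.45 and 1.04 FPKM. Of these 4, LOX was below 0.5 FPKM in normoxia and reached the mean limit only through its hypoxia value. Its place in the count thus depends on its own rise. The contractile gene ACTA2 was at 7.57 FPKM in normoxia and 8.62 in hypoxia, and TAGLN at 2.73 and 2.40. Genes of collagen I, THY1 and the PDGF receptors had no row.

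Cofactors and turnover enzymes of the EMT factors numbered 26, with 25 listed and 23 at the limit. Of these, 2 were called higher and 3 lower, with a median of -0.29. LOXL2, a lysyl oxidase-like enzyme reported to stabilise SNAI1, was at 3.79 FPKM in normoxia and 16.4 in hypoxia (2.08). SIN3A, a corepressor scaffold, was at 7.09 and 11.6 (0.70). ID3 and LOXL3 were lower, with log2 changes of -0.84 and -0.69, as was ID1 at -0.69. ID1 and ID3 encode inhibitors of basic helix-loop-helix factors.

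**Figure D4:**
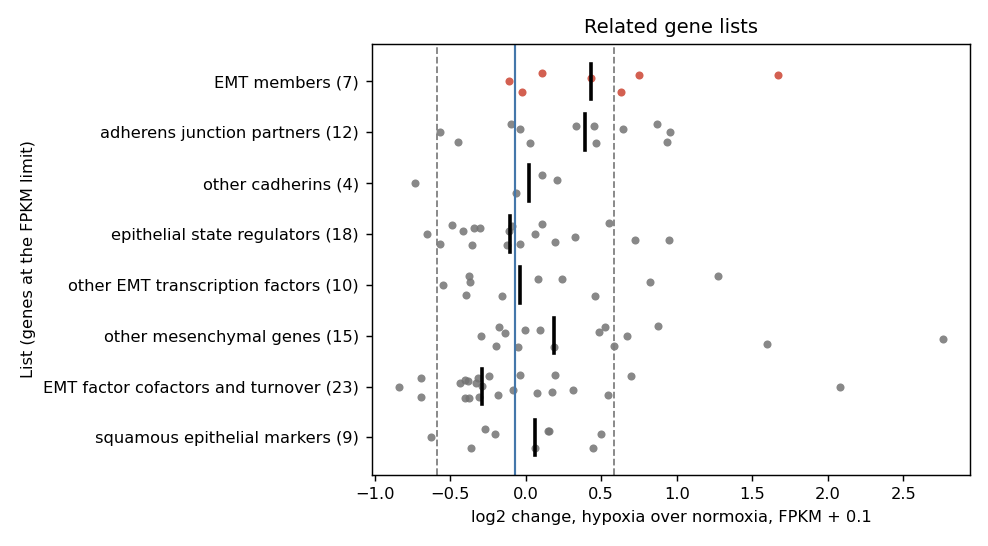
Log2 change (hypoxia over normoxia, 0.1 FPKM added) of single genes at the FPKM limit, 1 point per gene and 1 row per list with the number of genes in brackets; black ticks are list medians, the blue line is the median of all genes (-0.07) and dashed lines mark 1.5-fold. Points to the far right are ITGA5 and LOX among the mesenchymal genes, LOXL2 among the cofactors and FN1 among the EMT members.

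The order of the members by level, from CDH1 and CDH3 through SNAI2 to VIM, ZEB2 and ZEB1, was kept in hypoxia except that FN1 passed CDH2. The changes depended on how the columns were set against each other, since the FPKM of all listed transcripts summed to 536005 in normoxia and 458431 in hypoxia. With equal sums, the median change of all genes was 0.15 in place of -0.07, and 2221 genes were called higher and 599 lower in place of 1204 and 1361. Under that scaling CDH1 joined the called members, which then numbered 4, against 18.3% of all genes.

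**Figure D5:**
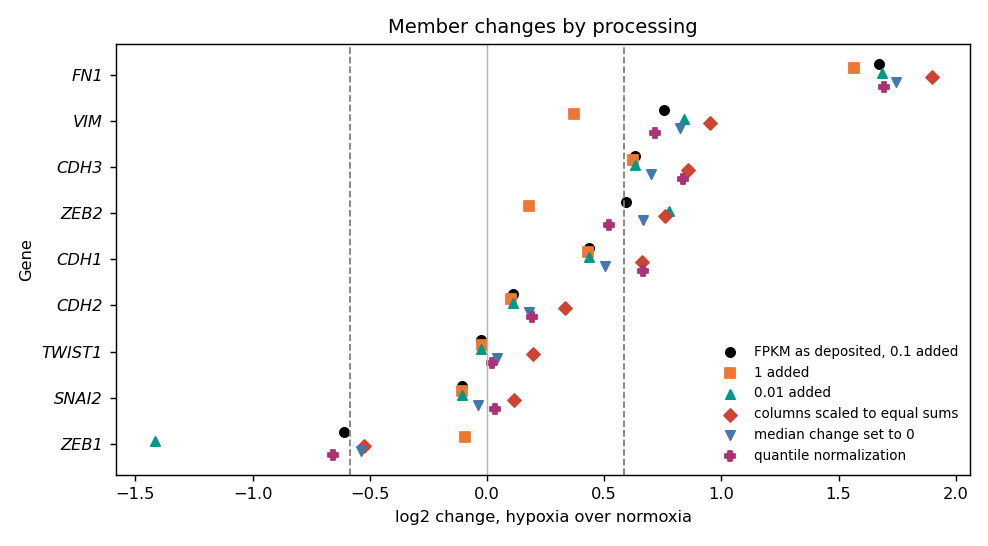
Log2 change of each listed EMT gene under 6 ways of processing, 1 marker shape per way, with dashed lines at 1.5-fold and a grey line at 0. FN1 stays right of the upper line throughout (1.57 to 1.90), VIM crosses it with 1 added (0.37), and ZEB1, below 0.5 FPKM, moves between -1.42 and -0.09.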

How the data were processed

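Polyadenylated RNA of 8 SQ20B cultures (4 normoxia, 4 hypoxia) was sequenced as stranded libraries. The authors aligned the reads to RefSeq hg19 with STAR 2.3.0.1 and ran Cuffdiff of Cufflinks 2.1.1. The FPKM values that the authors deposited are 1 per transcript and condition, scaled for transcript length and library size. The methods name standard parameters and do not state the kind of library scaling. Columns of their own comparison (fold change, statistic, p-value and q-value) were not used. Single replicates, depths and counts were not analysed here. No precision is given and no test was run. Groups follow the source label, since the treatment text is repeated for the normoxia samples.

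Identifiers were paired with symbols through RefSeq of GRCh38.p14 (24293 of 24812 transcripts, 97.9%), used for names only. FPKM was summed per gene, 0.1 was added before log2, and genes needed a mean of 0.5 FPKM. A call is a size of at least 1.5-fold across all 12106 genes, not a test. Listed starts count from 0 (11325 starts equal a GENCODE start after adding 1, 1212 as written), so 1 was added. Named were all members and, per list, the 2 largest differences in each direction past 1.5-fold, except that CA9, VEGFA and ADM were set for the hypoxia response genes. Other genes of the lists were named after their values were seen. 1 gene of the lists is not reported here and was left out of its counts. Members and lists were chosen with earlier results of these data known. The procedure was tested on simulated data. Python 3.11.15, numpy 2.4.6 and pandas 2.3.3 were used.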

Additional observations from a re-analysis of the deposited data

How the results depend on the processing

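No paired analysis was possible because the table gives 1 value per condition, and for the same reason no replicate could be left out. Pseudocounts of 1 and 0.01, equal column sums, a median change set to 0, quantile normalization and the most abundant transcript alone gave 54 values for single members, of which 46 stayed on their side of 1.5-fold, 8 crossed it and 0 reversed a called direction. For the 7 members listed with 1 transcript, the most abundant transcript alone is the main value itself. Those values could not move and are among the 46. The number of members called higher was 1 with a limit of 2-fold in place of 3 with 1.5-fold, and 2 with 1 added or a mean of at least 1 FPKM. Without the FPKM limit, 4 members were called higher, ZEB2 included, and 1, ZEB1, lower in place of 0. Of all 14528 genes, 11.9% were called higher and 10.3% lower under that setting. Raising the limit to 1 FPKM left 8.89% of 11005 genes called higher and 11.8% lower. Equal sums moved the median of the adherens junction partners to 0.61. Over all genes, the calls were 1204 higher and 1361 lower, and became 1499 and 1060 with the median set to 0, 1401 and 1022 with quantile normalization, 719 and 1031 with 1 added, and 388 and 317 with 2-fold. The counts behind single FPKM values were not analysed here, and levels such as those of ZEB1, ZEB2 and VIM are given without a precision.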

Other observations

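CDH5, FBN1 and the LOXL genes were singled out after their values were seen. CDH5, the cadherin that defines vascular endothelium, was at 4.78 FPKM in normoxia and 2.83 in hypoxia, whereas the endothelial markers PECAM1, VWF, KDR and TEK had no row in the table. In normoxia its level lay between those of TWIST1 (5.71 FPKM) and VIM (0.576). Its source in this carcinoma line was not tested.

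FBN1, which encodes the microfibril protein fibrillin-1, was below the FPKM limit, at 0.141 in normoxia and 0.504 in hypoxia. LOXL2 and LOXL3, members of the same enzyme family, moved apart, from 3.79 to 16.4 FPKM and from 3.24 to 1.96 FPKM.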
